A study of Mus musculus with 4 samples.

Results

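Cluster 8 of the monocyte, macrophage and dendritic cell bundle was a group of dividing myeloid cells found almost entirely after GM-CSF treatment. Its members were the cells that the authors' deposited bundle annotation places in cluster 8, 352 of the 3940 bundle cells from GM-CSF-treated mice (8.93%, 95% interval 8.06 to 9.87%) and 28 of the 2135 bundle cells in steady state (1.31%, 0.873 to 1.89%). The 6075 bundle cells came from 11631 annotated CD11b+ splenocytes, 6804 of them after GM-CSF and 4827 in steady state. The spleens were those of C57BL/6 mice aged 8 to 12 weeks, either untreated or given 3 once-daily subcutaneous injections of 10 µg GM-CSF and killed 24 h after the last. CITE-seq, which counts messenger RNA molecules as unique molecular identifiers (UMIs) and DNA-tagged antibodies in the same droplet, was run on 1 library per condition. The effect of GM-CSF therefore cannot be told apart from the library, cells were not used as replicates, and no test between conditions or clusters was made. The clusters were built from the same RNA, so differences in RNA between them are descriptions.

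Cells in S phase copy their DNA and make histones to package it, and cells in G2 and mitosis condense and separate the copied chromosomes. The transcripts of these programmes rise and fall in turn, which allows a snapshot of RNA to place a cell in the cycle. GM-CSF is a growth factor of monocytes, granulocytes and dendritic cells, and under its influence monocytes can take on features of dendritic cells. In the bundle, cells high for the M-CSF receptor CD115 carry the authors' subset names: classical monocytes (P-I), non-classical monocytes (P-II), pre-GM-CSF-induced dendritic cells (P-III) and GM-CSF-induced dendritic cells (P-IV), which bear the lectin CD301b, the product of Mgl2.

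After GM-CSF the cluster 8 cells held 3659724 UMIs with a median of 10545 UMIs (quartiles 8124 and 12481) and 3135 genes per cell, against medians of 7902 UMIs in the 370 cells of cluster 7, 6441 in the 1757 cells of clusters 0, 1 and 3, and 9648 in the 152 cells of cluster 12. Of the 352 cells, 351 belonged to mixed cluster 4 of the whole table, which also held 222 of the 370 cells of cluster 7. Scrublet called 25 of the 352 cells doublets (7.10%), 14 of 370 in cluster 7 and 3 of 1757 in clusters 0, 1 and 3, and 1 of the 352 had a barcode that the steady-state library also held. Levels below are summed UMIs of a gene or list per 1000000 UMIs of the same group of cells (CPM). A gene was called higher or lower when its CPM ratio, with 0.5 counts added to each sum, reached 2-fold and both groups together held at least 50 UMIs. Intervals are exact, at the 95% level, and cover counting error only.

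The 3 genes that mark the cluster stood far above their levels in the non-dividing neighbours. Mki67, whose product Ki-67 coats the chromosomes of dividing cells, stood at 852 CPM in cluster 8, 484 CPM in cluster 7 and 6.71 CPM in clusters 0, 1 and 3. Birc5, which encodes survivin of the chromosomal passenger complex, stood at 572, 521 and 1.57 CPM, and Ube2c, the ubiquitin-conjugating partner of the anaphase-promoting complex, at 539, 911 and 5.40 CPM. Across all 17 clusters of the bundle after GM-CSF, Mki67 was highest in cluster 8, Birc5 was second to cluster 12, and Ube2c came after clusters 7 and 12. A Mki67 UMI was found in 340 of the 352 cells (96.6%), in 65.1% of cluster 7, in 3.87% of clusters 0, 1 and 3 and in 0.391% of the 1791 treated granulocytes, a mature type that should lack it and that had a median of 1229 UMIs. When each cell was reduced to 2000 UMIs, which left out 4, 6, 3 and 1585 cells of these groups, the shares were 77.0, 48.9, 1.43 and 0.485%. The 3 markers thus went with the name cycling cells in the GM-CSF-treated library. All 3 are in the list that the study drew up for clusters 7, 8 and 12 on these samples. Their height here is therefore a description and not independent evidence.

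By the deposited phase calls, 254 cells of cluster 8 were in G2/M (72.2%, 67.2 to 76.8%) and 98 in S (27.8%, 23.2 to 32.8%), and none were in G1. Cluster 12 shared this absence of G1 cells, with 117 in G2/M and 35 in S, whereas cluster 7 had 266 in G2/M, 54 in S and 50 in G1 and clusters 0, 1 and 3 had 7, 242 and 1508. Cluster 8 thus contained 254 of the 757 G2/M cells of the treated bundle (33.6%) and 98 of the 660 S cells (14.8%). The 660 include the 242 S calls of clusters 0, 1 and 3, where the S score had an upper quartile of -0.0194 and 3.87% of cells had a Mki67 UMI. The deposited scores behind these calls separated clusters 8 and 7 along the S axis. The median S score was 0.275 (quartiles 0.165 and 0.435) in cluster 8 and -0.0276 in cluster 7, and the median G2/M scores were 0.569 and 0.326. Both scores were above 0 in 334 of the 352 cells of cluster 8 (94.9%, 92.0 to 96.9%), in 79 of 370 cells of cluster 7 (21.4%), in 113 of 152 cells of cluster 12 (74.3%) and in 1 of 1757 cells of clusters 0, 1 and 3. A cell of cluster 8 called G2/M usually had a raised S score as well, and the plot of both scores shows the cluster as a broad arc rather than as separate S and G2/M groups.

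**Figure D1:**
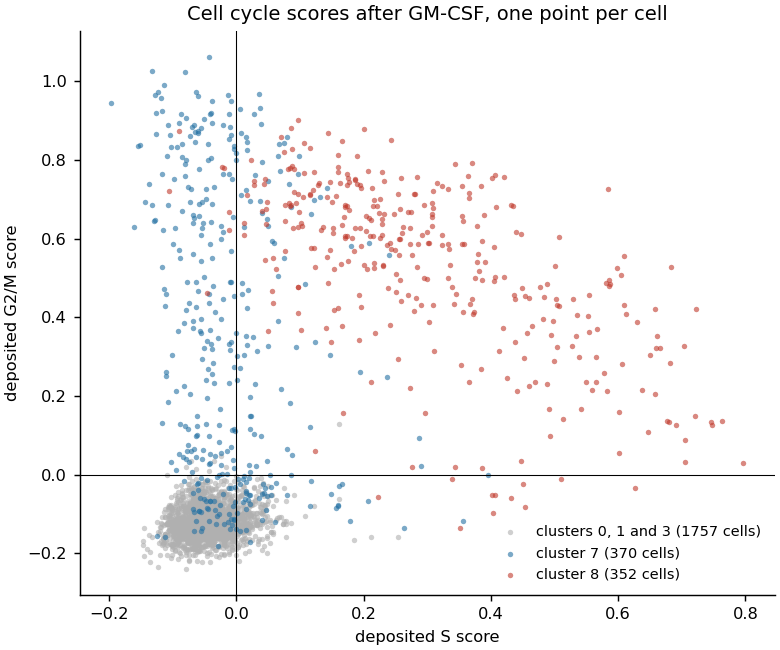
Deposited S score (horizontal) against deposited G2/M score (vertical), without units, for each cell of cluster 8 (red, 352 cells), cluster 7 (blue, 370 cells) and clusters 0, 1 and 3 (grey, 1757 cells) after GM-CSF, with lines at 0. Cluster 8 fills the upper right field, where 94.9% of its cells lie, while most of cluster 7 lies left of it at S scores around 0, and clusters 0, 1 and 3 lie near the lower left.

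DNA replication was the programme that set cluster 8 apart from cluster 7. Of the 8165 genes with enough UMIs, 390 (4.78%) were at least 2-fold higher in cluster 8 and 93 (1.14%) at least 2-fold lower, and the median ratio of all genes was 0.97. Of the 49 replication genes, 48 could be compared and 47 were higher, with a median ratio of 4.37, and together they stood at 4803 CPM against 1106 CPM (ratio 4.34, 4.19 to 4.50). Rrm2, the regulated subunit of the ribonucleotide reductase that makes DNA building blocks, stood at 222 against 13.3 CPM (16.5-fold, 12.2 to 23.5), and was detected in 80.4% of cluster 8 cells and 7.84% of cluster 7 cells. Its partner Rrm1 differed less, at 264 against 68.3 CPM. The genes that open S phase were among those furthest apart. Ccne2 and Ccne1, the E cyclins that drive entry into S, had 110 against 2 UMIs (37.3-fold, 12.5 to 388) and 202 against 13 UMIs (12.7-fold, 7.50 to 25.1). Cdc6, which loads the MCM helicase onto origins, had 125 against 7 UMIs. Dut, which keeps uracil out of DNA, stood at 258 against 35.9 CPM and Dnmt1, which copies DNA methylation onto the new strand, at 231 against 73.5 CPM. E2f7, a repressor of the E2F programme that is itself made late in S, was 9.72-fold higher.

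Histone genes followed the same side. Of 54 histone genes 19 had enough UMIs, 16 were higher in cluster 8 and 1 was lower, and the list stood at 2763 against 753 CPM (ratio 3.67, 3.51 to 3.84). Hist1h1b, a linker histone, stood at 905 against 80.9 CPM and Hist1h2ap, a core histone of the H2A type, at 514 against 70.3 CPM. The exception, Hist1h2bc of the H2B type, stood at 41.5 against 248 CPM (0.168-fold, 0.140 to 0.200). Most histone messages of S phase carry no poly(A) tail and the libraries captured poly(A) RNA, so these levels count only what was captured.

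The mitotic genes differed much less between clusters 8 and 7, and not all in the same direction. The 101 genes of the 4 mitotic lists stood at 24369 against 18784 CPM (ratio 1.30, 1.28 to 1.31), with 21 of 100 higher and 2 lower. Chromosome condensation and cohesion had 7 of 21 members higher, among them Esco2, which acetylates cohesin during S (10.6-fold), Ncapg2 and Ncapd3, subunits of condensin II (5.76- and 4.06-fold), and Top2a, the topoisomerase that untangles sister chromatids (989 against 404 CPM). Spindle and kinetochore genes had 9 of 39 higher and none lower, for a ratio of 1.49 (1.46 to 1.52). Genes for mitotic entry had 4 of 22 higher, led by Mybl2, a transcription factor of late S and G2 genes (9.36-fold), and 1 lower, Cdc25b, a phosphatase that starts mitosis (0.443-fold). As a list they were level at 2585 and 2569 CPM. Genes for mitotic exit and cytokinesis stood lower in cluster 8, at 3020 against 3320 CPM (ratio 0.909, 0.885 to 0.934). In that list Cdc20, which activates the anaphase-promoting complex, stood at 99.5 against 205 CPM, and Ube2c had a ratio of 0.592 (0.559 to 0.627). The B cyclins were lower too, Ccnb1 at 103 against 181 CPM and Ccnb2 at 175 against 348 CPM, though neither reached 2-fold, and Cenpa, the histone variant of centromeres, was 0.574-fold. Stmn1, which destabilises microtubules, and Tuba1b, an alpha-tubulin, were 2.63- and 2.47-fold higher in cluster 8.

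Cluster 7 was not uniform, and the mitotic comparison turned on which of its cells were taken. Its 222 cells in mixed cluster 4 of the whole table were 220 in G2/M and 2 in S, with a median G2/M score of 0.646 and S score of -0.0394, and their mitotic genes stood at 26442 CPM. The other 148 cells were 50 in G1, 52 in S and 46 in G2/M and had 5503 CPM. When only cells of mixed cluster 4 were compared, a choice made after the data were seen, the mitotic ratio of cluster 8 to cluster 7 turned from 1.30 to 0.924 (0.914 to 0.934). The replication ratio was then 3.78 (3.62 to 3.94), so that the difference in replication genes kept its direction where the mitotic one did not.

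Phase by phase, the replication genes stood higher in cluster 8 in every pairing. They stood at 7512 CPM in its S cells and 3788 CPM in its G2/M cells, against 1556 CPM in the S cells and 1138 CPM in the G2/M cells of cluster 7. The cells that the phase calls name G2/M in cluster 8 thus held more replication transcript than the S cells of cluster 7. For the mitotic genes the S cells of cluster 8 stood at 16578 CPM and those of cluster 7 at 5269 CPM, and in G2/M the ratio was 1.14. The phase calls rest on some of these same genes. Nearly all S cells of cluster 7 (52 of 54) were among its 148 cells outside mixed cluster 4, whose S score had an upper quartile of 0.022. S cells of cluster 8 had a median S score of 0.534, and the S pairings were not matched for score.

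**Figure D2:**
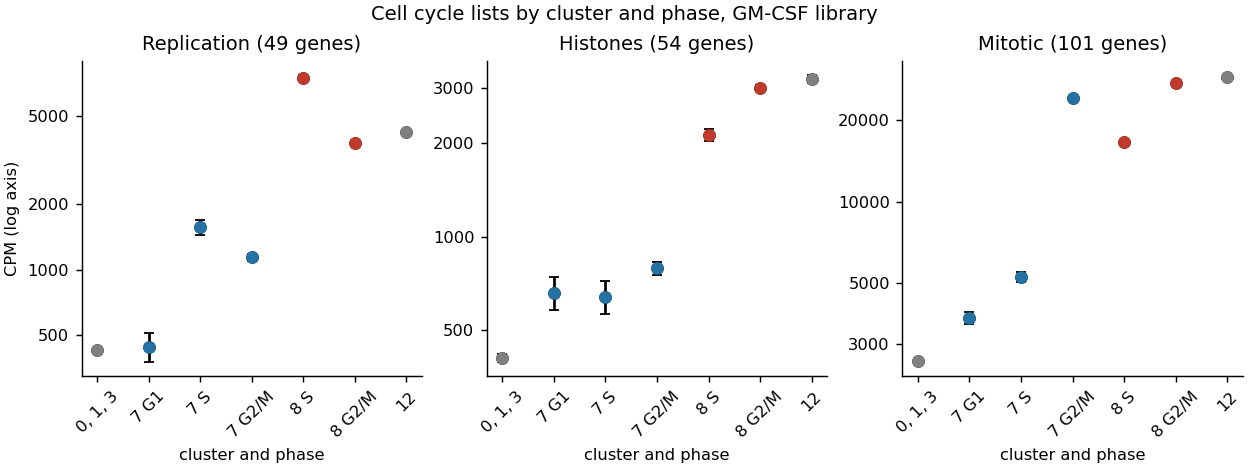
CPM (log axis) of the replication, histone and mitotic gene lists in clusters 0, 1 and 3 together, in cluster 7 by phase (blue), in cluster 8 by phase (red) and in cluster 12, with exact Poisson 95% intervals, which are hidden by most points. S and G2/M cells of cluster 8 stand above every phase of cluster 7 for replication and histone genes, and the G2/M cells of both clusters stand close together for mitotic genes.

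The promoters of genes from the late and the early programme are shown because replication genes differed more between clusters 8 and 7 than mitotic genes did. They are taken from RefSeq on GRCm38.p6, from 250 bases before to 20 bases after the gene's start, and capitals mark CCAAT (the NF-Y motif), TTTGAA (the cell cycle homology motif of G2/M genes) and the E2F core (TTCCCGC or TTCGCGC or TTGCCGC or TTGGCGC) on either strand, with overlapping matches allowed. Mki67 lies at chr7:135716360-135716629 on the minus strand, Ube2c at chr2:164769679-164769948 on the plus strand, Ccnb2 at chr9:70421535-70421804 on the minus strand and Rrm2 at chr12:24708004-24708273 on the plus strand.
Mki67: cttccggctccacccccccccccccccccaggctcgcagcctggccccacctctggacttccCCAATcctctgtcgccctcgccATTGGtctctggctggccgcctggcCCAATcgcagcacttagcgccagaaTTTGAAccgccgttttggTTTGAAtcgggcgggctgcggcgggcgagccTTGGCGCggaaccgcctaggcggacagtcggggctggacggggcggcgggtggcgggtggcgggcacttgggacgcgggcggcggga
Ube2c: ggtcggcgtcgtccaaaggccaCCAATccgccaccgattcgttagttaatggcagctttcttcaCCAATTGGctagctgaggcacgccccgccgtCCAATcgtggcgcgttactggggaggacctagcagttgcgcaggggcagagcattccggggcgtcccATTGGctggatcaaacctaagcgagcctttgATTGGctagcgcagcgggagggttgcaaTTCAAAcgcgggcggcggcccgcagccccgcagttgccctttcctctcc
Ccnb2: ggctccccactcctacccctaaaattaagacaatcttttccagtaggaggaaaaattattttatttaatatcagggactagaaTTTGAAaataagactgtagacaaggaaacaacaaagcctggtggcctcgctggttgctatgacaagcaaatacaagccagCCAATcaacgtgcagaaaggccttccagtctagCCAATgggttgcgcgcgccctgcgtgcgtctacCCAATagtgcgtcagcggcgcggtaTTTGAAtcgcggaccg
Rrm2: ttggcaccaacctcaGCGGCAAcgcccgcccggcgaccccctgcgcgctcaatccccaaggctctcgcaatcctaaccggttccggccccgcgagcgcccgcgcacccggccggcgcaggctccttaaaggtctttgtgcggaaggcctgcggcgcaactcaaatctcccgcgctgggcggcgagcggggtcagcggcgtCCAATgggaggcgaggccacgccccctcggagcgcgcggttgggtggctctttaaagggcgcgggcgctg
Mki67 held 2 TTTGAA, 3 CCAAT and 1 E2F core, Ube2c held 1, 6 and 0, Ccnb2 held 2, 3 and 0, and Rrm2, the gene of this set with the highest ratio of cluster 8 to cluster 7, held 0, 1 and 1.

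The shares of promoters with these letters were counted in the whole window of 300 bases. Of the 390 genes higher in cluster 8 than in cluster 7, 318 had a RefSeq promoter, and 139 of those (43.7%, 38.2 to 49.4%) held an E2F core, against 18.8% of the 6649 compared genes with a promoter and 9.69% of all 27025 promoters. CCAAT was held by 52.8, 39.4 and 37.9% and TTTGAA by 18.9, 12.3 and 18.1% of those sets. Among the mitotic lists 81 of 101 genes had a promoter, of which 60.5% held TTTGAA, 71.6% held CCAAT and 24.7% held an E2F core. In the histone list (50 of 54) the shares were 48.0, 84.0 and 26.0%. A match says only that the letters are present. Of the replication list 39 of 49 genes had a promoter, under the 80% set as the minimum, and no share is given.

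Lineage lists differed in part between clusters 8 and 7, where 4.78% of all 8165 genes were higher and 1.14% lower. None of the 12 MHC class II genes compared and none of the 16 classical monocyte genes reached 2-fold, which is near those shares. These lists stood at 20282 against 20568 CPM and 9110 against 11305 CPM. In G2/M cells alone, 3 of 16 classical monocyte genes were lower (median ratio 0.687), against 85 of 7478 genes overall. Of the 32 genes that the study lists for P-IV, 6 were higher in cluster 8 and none lower, at 3404 against 2438 CPM (interval of the ratio 1.36 to 1.44). That list was chosen by the study on these samples, so its direction is not independent evidence. The 6 were Gfra2, a receptor for neurturin (4.22-fold), Fgfr1, a receptor for fibroblast growth factors (3.14-fold), Mmp12, the macrophage elastase (2.69-fold), the adaptors Dok2 (2.12-fold) and Lmo1 (2.16-fold), and Cd209a, a lectin of the DC-SIGN family (2.02-fold). Mgl2 stood at 158 against 89.0 CPM, Itgax, which encodes CD11c, at 168 against 123 CPM, and Csf1r, which encodes CD115, had a ratio of 0.879. Ly6c2, the antigen of classical monocytes, had a ratio of 1.02. Outside the cycle lists the lowest ratios in cluster 8 included Slfn5, an interferon-inducible gene (14.2 against 68.6 CPM), and Ly6a, which encodes Sca-1 (0.318-fold). The very lowest, the basophil genes Mcpt8 and Prss34, came from 1 cell of cluster 7 that held 209 and 207 of their UMIs.

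Against clusters 0, 1 and 3, the main bodies of GM-CSF-treated cells that were mostly in G1, cluster 8 had the cell cycle in full. Of 9502 genes 817 (8.60%) were higher and 619 (6.51%) lower, with a median of 0.94 over all genes. All 48 compared replication genes and 98 of 99 mitotic genes were higher, as were the 18 genes of the study's own cycling list, which was chosen on these samples and is not independent evidence. The mitotic lists stood at 24369 against 2599 CPM and the replication list at 4803 against 428 CPM. Mki67 was 126-fold higher (101 to 161) and Ube2c 99.0-fold. Kif2c, a microtubule depolymerase of the kinetochore, had 220 UMIs in cluster 8 and none in clusters 0, 1 and 3, at least 230-fold higher when set against a floor of 3 counts over the group. By the same bound E2f7 was at least 162-fold higher. Btg2, an inhibitor of proliferation, went the other way at 252 against 508 CPM.

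The P-IV list stood lower and the classical monocyte list higher in cluster 8 than in clusters 0, 1 and 3. Of the study's 32 P-IV genes 17 were lower and 1 was higher, at 3404 against 5731 CPM (ratio 0.594, 0.583 to 0.606), and again the list was chosen on these samples. The higher one, Smc4, encodes a condensin subunit. Mgl2 stood at 158 against 398 CPM, Cd209a at 136 against 399 CPM and Fgfr1 at 67.5 against 213 CPM. Of 12 MHC class II genes 1 passed, H2-Ob (lower), although the list as a whole stood at 20282 against 33098 CPM. Of 18 dendritic cell transcription factor genes 1 was lower. Both counts are near the 6.51% of all 9502 genes that were lower. Of 16 classical monocyte genes 8 were higher and none lower, at 9110 against 5262 CPM. Among them were Ly6c2 (39.2-fold), F13a1, which encodes coagulation factor XIII A (27.8-fold), Hp, haptoglobin (19.7-fold), Vcan, versican (18.5-fold), Chil3, a chitinase-like protein (12.6-fold), Fn1, fibronectin (2.32-fold) and Lyz2, lysozyme (2.29-fold).

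Other lists moved in part, where 8.60% of all 9502 genes were higher and 6.51% lower. Of the 22 antigen uptake genes 7 were lower and 3 higher, the latter Fcgr1, a high-affinity IgG receptor (5.73-fold), and the scavenger or lectin receptors Msr1 and Clec4e. Co-stimulation and migration genes had 4 of 10 lower and none higher, and immediate early and stress genes had 7 of 17 lower. In the GM-CSF receptor list 2 of 18 were lower, Cish and Socs2, both feedback inhibitors induced by cytokine signals. That count, like the 3 antigen uptake genes that were higher, is near the share over all genes. The GM-CSF receptor list as a whole stood at 1490 against 2011 CPM. Among the 3 neighbours cluster 1 was closest to cluster 8 in the P-IV and classical monocyte lists, with 3072 CPM for the P-IV list and 10028 CPM for the classical monocyte list, whereas cluster 0 stood at 7286 and 3332 CPM and cluster 3 at 6309 and 3053 CPM. The lowest ratios of all were of haemoglobin genes, and 1161 of the 1177 Hbb-bs UMIs in clusters 0, 1 and 3 lay in 1 cell.

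Cluster 12 stood nearer to cluster 8 in the cell cycle lists than in the lineage lists. Of 7648 genes 563 (7.36%) were higher in cluster 8 and 310 (4.05%) lower. Replication genes had a ratio of 1.13 and mitotic genes of 0.844, with none of 100 mitotic genes at 2-fold. All 14 compared dendritic progenitor genes were lower in cluster 8, at 284 against 3025 CPM, but most of this list, Ckb, Ffar2 and H2-Oa among them, was picked by the study for clusters including cluster 12 in these samples and is not independent evidence. Of the members that the study did not pick there, Kit, the stem cell factor receptor, stood at 2.46 against 106 CPM and Flt3, the receptor of the dendritic cell growth factor FLT3L, at 10.4 against 102 CPM. Dtx1, a regulator of Notch signals, had no UMI in cluster 8 and 81 in cluster 12, at least 65.2-fold lower. Of 16 classical monocyte genes 12 were higher in cluster 8, at 9110 against 1796 CPM. Vcan and F13a1 had 327 and 217 UMIs against none, at least 45.2- and 30.0-fold higher, and Csf1r stood at 137 against 17.8 CPM.

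Surface tags took no part in the clustering of the RNA, and by CD301b and Ly6C cluster 8 lay between its neighbours. The median CD301b count per cell was 26 (quartiles 14 and 192) in cluster 8, 14 in cluster 7 and 64 in clusters 0, 1 and 3. Ly6C had a median of 54 (22 and 145) in cluster 8, 79 in cluster 7 and 15 in clusters 0, 1 and 3. CD115 stood at 48 (21 and 80.2), 35 and 45 in that order, and the dendritic cell integrin CD11c at 240 (95 and 466), 120.5 and 187. MHC II stood at 397.5 (151 and 773), 221 and 358. Quartiles overlapped those of both neighbours for CD115, CD11c, MHC II and CD301b. Cluster 12 carried almost no CD115 (median 6.5) beside 459 for CD11c and 668 for MHC II. The tag total per cell also differed, with medians of 985 in cluster 8, 543.5 in cluster 7 and 809 in clusters 0, 1 and 3, and its part in these differences was not tested. As a share of a cell's tags, Ly6C had medians of 6.24% in cluster 8, 16.3% in cluster 7 and 1.72% in clusters 0, 1 and 3, the same order. The shares of CD115 were 4.38, 5.76 and 5.22% and those of MHC II 41.1, 40.2 and 47.3%, and for CD11c too the share in clusters 0, 1 and 3 was above that of cluster 8 (22.7%).

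**Figure D3:**
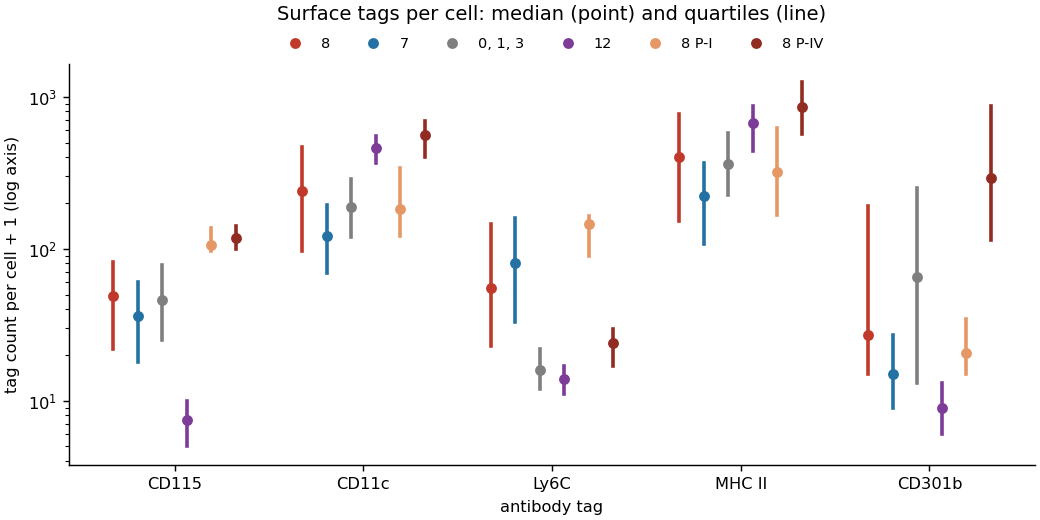
Tag counts per cell plus 1 (log axis) for the 5 antibodies in clusters 8, 7, 12 and 0, 1 and 3 together after GM-CSF and in the P-I and P-IV cells of cluster 8; points are medians and lines run from the lower to the upper quartile. P-I and P-IV cells of cluster 8 have similar CD115 (medians 105 and 117) and part in Ly6C (144.5 and 23) and CD301b (19.5 and 289), the tags that define them.

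Both ends of the monocyte to dendritic cell series were found among the dividing cells. By the deposited gates 82 of the 352 cells were CD115hi (23.3%, 19.0 to 28.1%), of which 47 were P-IV (57.3%, 45.9 to 68.2%), 22 were P-I (26.8%, 17.6 to 37.8%), 8 were P-III (9.76%) and 5 carried no subset name. No P-II cell was found among the 82, which allows a share of up to 4.40% by the exact interval. In cluster 7 the order was turned round, with 30 P-I cells among 52 CD115hi cells (57.7%, 43.2 to 71.3%) and 15 P-IV cells (28.8%, 17.1 to 43.1%). In clusters 0, 1 and 3 P-IV cells made up 223 of 364 (61.3%). Cluster 8 held 47 of the 313 P-IV cells of the treated bundle (interval of the share 11.2 to 19.5%), 22 of its 187 P-I cells (7.52 to 17.3%) and 8 of its 126 P-III cells (2.78 to 12.1%). Among cluster 8 cells S phase was called in 18 of the 47 P-IV cells (38.3%, 24.5 to 53.6%), 75 of the 270 CD115low cells (27.8%, 22.5 to 33.5%), 1 of 8 P-III cells, and 2 of 22 P-I cells (9.09%, 1.12 to 29.2%). The intervals of P-IV and P-I overlap.

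Within cluster 8, P-IV and P-I cells differed in lineage genes. The subsets were gated on their Ly6C, MHC II and CD301b tags, so that a difference in MHC class II genes, Ly6c2 and Mgl2 follows the gate and is given as a description. Of 2189 genes 81 (3.70%) were higher in P-IV and 54 (2.47%) lower. Of the study's P-IV genes 19 of 22 compared were higher (5824 against 2116 CPM), as were 5 of 10 MHC class II genes (29155 against 14918 CPM), and 6 of 8 classical monocyte genes were lower (2932 against 13661 CPM). The first of these lists was drawn up for P-IV cells of these samples and is not independent evidence. Fgfr1 and Gfra2 had 78 and 46 UMIs in P-IV cells and none in P-I cells, at least 12.8- and 7.54-fold higher. Cd209a had 112 against 2 UMIs (22.1-fold, 7.45 to 230), and Mgl2, the gene of the CD301b tag that gates P-IV, had 147 against 3 UMIs (20.7-fold, 8.09 to 118). Ly6c2 had 0 against 46 UMIs, at least 31.2-fold lower, Chil3 had 3 against 161 UMIs, and Lyz2 stood at 1313 against 7662 CPM. Mki67 stood at 739 and 782 CPM (ratio 0.945, 0.788 to 1.14), replication genes at 5210 and 4613 CPM (1.13, 1.05 to 1.21) and mitotic genes at 22107 and 24221 CPM (0.913, 0.883 to 0.943).

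Set beside the same subset outside the cycling cluster, dividing P-IV cells had a lower level of the P-IV list. Both groups were gated on the same tags. Against the 223 P-IV cells of clusters 0, 1 and 3, 315 of 5041 genes were higher (6.25%) and 235 lower (4.66%). Of the 32 P-IV genes 29 stayed within 2-fold and 1 was higher (Smc4). The 2 lower ones were Dapk1, a death-associated kinase (0.439-fold), and Scimp, a transmembrane adaptor (0.426-fold). These counts are near the shares over all genes and show nothing particular to the P-IV genes. The list, chosen on these samples, stood at 5824 against 7244 CPM (ratio 0.804, 0.771 to 0.838). Mgl2 stood at 312 against 541 CPM and Cd209a was 0.517-fold, while none of the MHC class II genes reached 2-fold (list ratio 0.883). Mrc1, the mannose receptor, was 0.202-fold, from 3 against 56 UMIs (0.0350 to 0.538), and Irf8, a transcription factor of monocytes and dendritic cells, was 0.383-fold (0.259 to 0.538). Mki67 stood at 739 against 5.21 CPM, and Birc5 had 229 UMIs against none, at least 249-fold higher. The tags of the dividing P-IV cells had medians of 117 for CD115, 557 for CD11c, 861 for MHC II and 289 for CD301b, beside 115, 266, 482 and 254 in the P-IV cells of clusters 0, 1 and 3. Ly6C had medians of 23 and 17. By share of a cell's tags, CD115 (5.16 against 8.96%) and CD301b (15.2 against 22.2%) stood lower in the dividing cells and CD11c (26.2 against 20.2%) higher, and the part of the tag total in these differences was not tested.

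Dividing P-I cells were set beside P-I cells of clusters 1, 2 and 5 in the same way. Of 2772 genes 165 were higher (5.95%) and 134 lower (4.83%). The classical monocyte list stood at 13661 against 19012 CPM, with Ly6c2 2.44-fold higher. Of 10 non-classical monocyte genes 4 were lower, and neutrophil markers stood at 920 against 382 CPM (2.41-fold). Spc24, a kinetochore subunit, had 64 UMIs against none and was at least 63.3-fold higher. Csf1r was 0.620-fold and Plac8, a gene of immature myeloid cells and monocytes, was 0.502-fold. Among the lowest were Pou2f2 and Runx3, transcription factors of blood cells (0.226- and 0.206-fold).

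Over all 352 cells, lineage genes of cluster 8 stood in order with the CD301b tag. Mgl2 is the gene of that tag. With Cd209a and Fgfr1 it is in the P-IV list, chosen on these samples for cells gated on CD301b. The rise of these genes with the tag is therefore a description and not independent evidence. The cells were put in 3 groups of 117, 117 and 118 by their CD301b count (2 to 16, 16 to 77 and 78 to 2687). From the lowest to the highest group, Mgl2 stood at 10.8, 83.5 and 373 CPM, Cd209a at 2.49, 53.7 and 344 CPM and Fgfr1 at 13.3, 28.9 and 158 CPM. Ly6c2 ran the other way at 275, 198 and 7.24 CPM, as did Lyz2 at 8158, 5619 and 1308 CPM and Plac8 at 2519, 2256 and 400 CPM. The classical monocyte list fell from 13957 through 10692 to 2867 CPM while the MHC class II list rose from 13187 through 17346 to 30023 CPM. Mki67 stood at 858, 846 and 853 CPM in the same groups, with intervals that overlapped, the replication list at 5085, 4570 and 4757 CPM and the mitotic lists at 24595, 25224 and 23318 CPM, the lists with intervals that did not all overlap. S cells made up 29.9, 20.5 and 33.1% of the groups, also with overlapping intervals. Csf1r, at 141, 140 and 131 CPM, did not follow the CD301b tag either. In groups made by the MHC II tag the replication list did fall, from 5304 through 4749 to 4367 CPM, with separate intervals. S cells were then 35.9, 25.6 and 22.0%, with overlapping intervals, and Mki67 and the mitotic lists had no such order. By CD11c, S cells were 39.3, 16.2 and 28.0%. The replication list had no such order by CD11c, Ly6C or CD115.

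**Figure D4:**
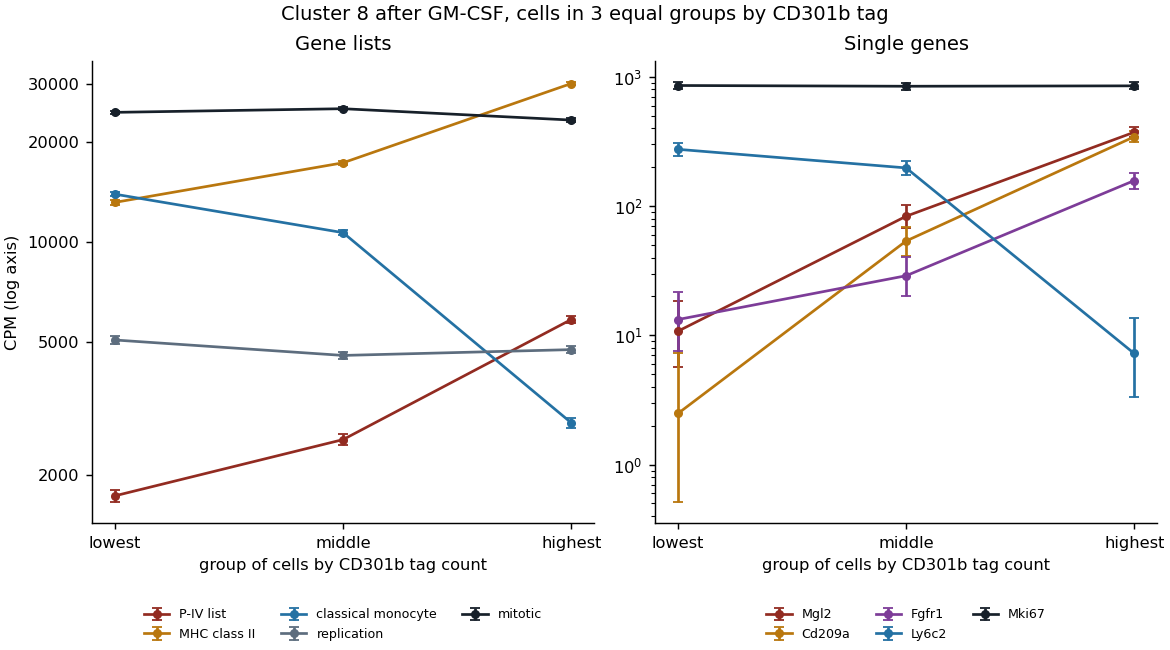
CPM (log axes) in the cells of cluster 8 after GM-CSF, put in 3 equal groups from the lowest to the highest CD301b tag count, for 5 gene lists (left) and 5 genes (right), with exact Poisson 95% intervals. Mgl2, Cd209a, Fgfr1, the P-IV list and the MHC class II list rise with the tag, and Ly6c2 and the classical monocyte list fall. Mki67, replication and mitotic genes have no such order by CD301b. The P-IV list, which holds Mgl2, Cd209a and Fgfr1, was chosen on these samples for cells gated on CD301b.

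The same split ran through the cells that the CD115 gate left out. The lowest CD301b count of a P-IV cell in cluster 8 was 21, and 139 of the 270 CD115low cells (51.5%, 45.3 to 57.6%) had as many or more, with a median CD115 count of 42. These 139 cells had 4354 CPM for the P-IV list and 6356 CPM for the classical monocyte list, whereas the other 131 had 1702 and 13749 CPM. Mgl2 stood at 255 against 18.7 CPM and Cd209a at 246 against 3.74 CPM. Mki67 was level at 884 and 874 CPM. This cut was set after the values were seen and rests on 1 tag. The P-IV list, with Mgl2 and Cd209a in it, was chosen on these samples for cells gated on that tag and is not independent evidence.

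Between its S and G2/M cells, cluster 8 differed in part in the cell cycle genes on which such calls rest. Of 6787 genes 144 (2.12%) were higher in S and 131 (1.93%) lower. Of 48 replication genes 20 were higher in S, and of 98 mitotic genes 39 were lower and 1 was higher. Ung, which cuts uracil out of DNA, had 49 against 3 UMIs (37.7-fold, 14.1 to 219), Cdca7, an E2F and MYC target, was 9.11-fold higher, and Mcm6, a helicase subunit, stood at 250 against 63.5 CPM. At the other end Pif1, a helicase, had 1 UMI in S and 67 in G2/M cells, and Cenpf, a kinetochore protein that builds up in G2, stood at 43.1 against 249 CPM. Cdc20 was 0.175-fold and Ube2c stood at 150 against 685 CPM. Histone genes were lower in S cells than in G2/M cells of this cluster, with a ratio of 0.704 (0.670 to 0.738). Of the lineage lists, P-IV genes stood at 3362 and 3420 CPM, whereas the MHC class II list had a ratio of 0.836 (0.822 to 0.850), with 1 of 12 genes lower, and the classical monocyte list of 1.19 (1.16 to 1.22), with 3 of 16 genes higher. Ly6c2 was one of these 3, at 276 against 115 CPM (2.41-fold). Of the other genes at the high end Id3, an inhibitor of basic helix-loop-helix factors, was 6.71-fold higher in S, while the Lyz1 and Ccl17 values rested in part on 1 cell each, which held 21 of the 61 and 15 of the 53 UMIs of these genes in cluster 8.

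NK, T and B cell markers were low in cluster 8 after GM-CSF. The NK list stood at 63.9 CPM, and 42 of 352 cells (11.9%) had a UMI of 2 or more of its 23 markers, at most 4 in any cell. T cell markers came to 6.83 CPM and B cell markers to 11.5 CPM. Neutrophil markers stood at 1051 CPM, 787 CPM in cluster 7 and 330 CPM in clusters 0, 1 and 3. Of 14 genes 9 were higher in cluster 8 than in the last of these. In cluster 8, 228 of the 352 cells (64.8%) had 2 or more of them, beside 63.5% of cluster 7 and 49.2% of clusters 0, 1 and 3. Within cluster 8 they stood at 638 CPM in CD115hi and 1176 CPM in CD115low cells. Early myeloid genes together stood at 377 CPM, against 510 CPM in cluster 7. Markers of cDC1, a type of conventional dendritic cell, stood at 737 CPM, below the 1062 CPM of clusters 0, 1 and 3. The share of cells with 2 or more was not particular to cluster 8. It was 263 of the 352 cells (74.7%), 64.1% of cluster 7 and 66.0% of clusters 0, 1 and 3. Naaa and Wdfy4 held most UMIs of that list in cluster 8. The part of such RNA in the differences above was not tested.

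The 28 steady-state cells of the cluster were mostly of another kind. Of these, 22 (78.6%, 59.0 to 91.7%) had UMIs of at least 14 of the 23 NK markers (median 18), and the other 6 had at most 1 marker. In the 22 cells the NK list stood at 32249 CPM, with Gzma, a granzyme, at 13360 CPM, Ccl5, a chemokine, at 6446 CPM, Nkg7, a granule protein, at 3151 CPM and Ncr1, the NK receptor NKp46, at 703 CPM. In them Lyz2 stood at 47.8 CPM and Csf1r and H2-Aa at 9.56 CPM each, with no UMI of Mgl2. Of the myeloid lists, neutrophil markers were not low in these cells, at 3606 CPM, and classical monocyte genes stood at 909 CPM. The early myeloid list stood at 3562 CPM, but it shares Nkg7 with the NK list. Nkg7 held 659 of its 745 UMIs, and Mpo and Elane had none. The 22 cells were dividing all the same, with Mki67 at 1492 CPM and the mitotic lists at 38451 CPM. The other 6 cells had 5, 211, 32, 470, 0 and 1 Lyz2 UMIs, and as a group stood at 6122 CPM of Lyz2, 630 CPM of Ly6c2 and 954 CPM of Mki67, with no UMI of Mgl2. Their Cd79a level, a B cell receptor gene, was 264 CPM, so the 6 were not of a single kind. The 2 libraries thus do not offer a comparison of like cells within this cluster, and its steady-state level of dividing monocyte or dendritic cells rests on at most 6 cells.

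**Figure D5:**
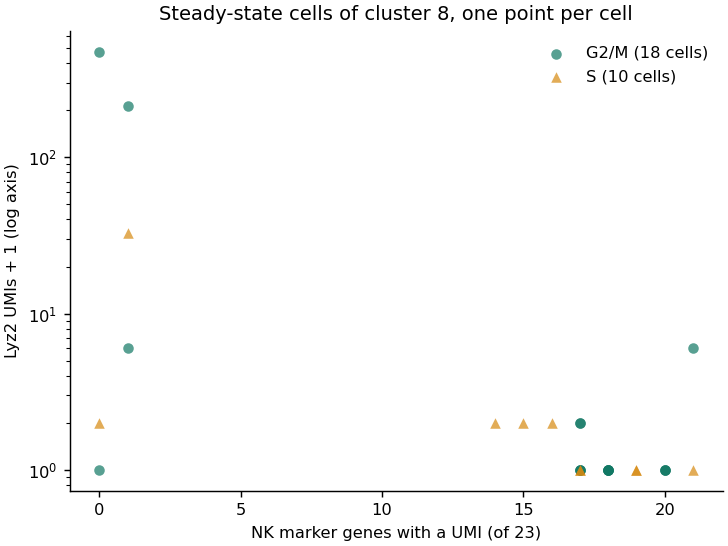
NK marker genes with at least 1 UMI (of 23, horizontal) against Lyz2 UMIs plus 1 (vertical, log axis) in the 28 steady-state cells of cluster 8, with circles for the 18 G2/M cells and triangles for the 10 S cells; darker points overlap. The 22 cells with 14 or more NK markers have few or no Lyz2 UMIs, and the other 6 cells at the left have 0 to 470.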

How the data were processed

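Per the labels, CD11b+ splenocytes were sorted by flow cytometry and 1 library was made per condition with 10x 3' v3 chemistry for RNA and antibody tags. The authors deposited raw counts of UMIs per gene and of tags per cell, made with Cell Ranger 3.0.2 on mm10 and with CITE-seq-Count. They kept cells of 200 to 5000 genes and at most 15% mitochondrial UMIs, the percent being deposited per cell, and integrated and clustered both libraries with Seurat 3.6.0. The deposited S and G2/M scores are Seurat cell cycle scores without a unit. Clusters, subsets and phases were taken from the authors' cell tables, so filters on cells are theirs.

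Counts were added up within each group of cells. Sums carry exact Poisson intervals, ratios of sums exact intervals from the binomial share of their counts, and shares Clopper-Pearson intervals. A fold against a group without UMIs was taken against a floor of 3 counts over that group. No p-value was computed. Doublets were called per library with Scrublet on exact neighbours (152 of 4827 and 186 of 6804 cells) and left out only in alternatives, as was thinning of each cell to 2000 UMIs (seed 20). Gene ratios and their rule were tested on simulated data. Alternatives covered the UMI minimum, added counts, depth, doublets, weighting of cells, phase, subsets and marker minimum. Python 3.11.15, scanpy 1.11.5, numpy 2.4.6, scipy 1.17.1, pandas 2.3.3 and matplotlib 3.10.9 were used.

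The cluster, the comparisons and the gene lists were chosen with earlier results of these data known. Named were the 3 marker genes, the RNA of the 5 tags, in each comparison the 10 highest and 10 lowest ratios with and without cell cycle genes, and of each list the 4 members with most UMIs in cluster 8 and the members 2-fold apart. The B cyclins, Cenpa, Mcm6, Cd79a, Nkg7, Ncr1 and the 4 promoters printed were chosen after their values were seen. The bulk RNA-seq of the study was not used here. Some named results are not reported here.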

Additional observations from a re-analysis of the deposited data

How the results depend on the processing

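The replication ratio of cluster 8 to cluster 7 (4.34) was 4.36 to 4.44 with thinned cells, without doublets or with cells weighted equally, 3.33 in G2/M cells, 4.83 in S cells and 3.78 in cells of mixed cluster 4 of the whole table. The mitotic ratio (1.30) was 1.41 with thinned cells and with cells weighted equally, 1.33 without doublets, 1.14 in G2/M and 3.15 in S cells, and turned to 0.924 in cells of mixed cluster 4. The P-IV list ratio to clusters 0, 1 and 3 (0.594) was 0.614 thinned, 0.611 with cells weighted equally, 0.739 in G2/M, 0.653 in S cells and 0.505 without Smc4 and Mgl2.

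Genes lower in cluster 8 than in cluster 7 (93) numbered 225 with a minimum of 20 UMIs, 43 with 100 and 58 thinned, where 191 were higher (390 in full). Against clusters 0, 1 and 3, 496 were higher thinned, 342 lower with 5 counts added, 1001 lower in G2/M cells (only 7 such cells in those clusters), and 505 higher and 272 lower in S cells. Thinned, 40 genes were higher and 78 lower in S than in G2/M, and 8 and 8 in P-IV and P-I. Thinning left 4042 of 8165 genes to compare with cluster 7 and 336 of 2189 between subsets, so counts shrank with the genes tested.

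With phases scored again on thinned cells, both scores were above 0 in 87.9% (94.9% as deposited). Of 75 alternative values 47 stayed close to the reported ones, 27 moved and 1 changed direction. The share in S or G2/M stayed at 100% in its 4 alternatives. Doublet removal and the CD115hi cells alone could not have changed it, as all 352 cells were already in S or G2/M. P-IV made up 48.7 to 60.8% of CD115hi cells, where the alternative of S or G2/M cells held the same 82 cells. Such fixed values are counted among the 47. The comparisons within mixed cluster 4, and thinning or doublet removal for phases, subsets and both scores, were chosen after seeing the data. No paired analysis was possible because each condition had 1 library and no replicate. Subset comparisons rest on as few as 22 cells, and genes under 50 UMIs were not compared.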

Other observations

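In the treated library, RNA of the cluster 8 cells also differed between those inside and outside the CD115 gate. Of 6787 genes 35 were at least 2-fold higher in the 82 CD115hi cells and 72 at least 2-fold lower. Among the lower genes were 6 of 16 classical monocyte genes (list ratio 0.669, 0.650 to 0.689), Vcan and Hp among them, and among the higher 2 of the study's P-IV genes, a list chosen on these samples. Prtn3, a protease of neutrophil precursors, was 0.125-fold and Lcn2, a neutrophil granule protein, 0.163-fold. Dmkn had the lowest ratio at 0.113.
Stress genes stood slightly higher in cluster 8 than in cluster 7, at 4972 against 3962 CPM, with 3 of 15 genes at least 2-fold higher, the heat shock genes Hspa1b (5.69-fold), Dnajb1 (2.11-fold) and Hsp90aa1 (2.08-fold). Interferon-inducible genes stood lower, at 1442 against 1946 CPM. The only member at least 2-fold higher, Cxcl10 (2.49-fold), had 56 of its 110 UMIs in 1 cell of cluster 8. Glycolysis genes stood at 3443 against 3183 CPM, with none of 16 at 2-fold.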
